A study of Drosophila melanogaster with 17 samples.

Results

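The first hour of a metabolic labelling experiment was followed in 4 small RNA libraries of a series of 17, all from wild type S2 cells, a line made from Drosophila embryos that resembles blood cells. Cells were given 500 µM 4-thiouridine (s4U) for 0.25, 0.5 or 1 h, with 1 library for each time, and were set against cells without s4U (0 h). RNA of all 4 libraries was alkylated with iodoacetamide (IAA) and was not oxidised. A further library, from cells without s4U whose RNA was not alkylated, served as a second unlabelled sample. All cells grew at 25 °C with 10% FBS, RNA of 18 to 30 nt was sequenced after depletion of 2S rRNA, and both adapters ended in 4 random nucleotides. The members are the miRNA arms with at least 1000 reads over U in each of the 4 libraries, 112 of the 135 arms in the deposited mismatch table. Reads over U are summed over the U positions in nucleotides 1 to 18, so a read counts once for each U it covers. Of the other arms 9 repeated the sequence of a listed arm and 14 had fewer reads. Both arms of 42 hairpins were described. In each hairpin the arm with more reads at 0 h is called the guide and the other the passenger, which gave 42 passengers and 39 guides (the guides of 3 further hairpins are copies), and 31 arms had no described partner.

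A miRNA is cut from its primary transcript by Drosha and from the hairpin by Dicer-1, which leaves a duplex of both arms. Argonaute1 keeps the guide strand, which recognises its targets through the seed (nucleotides 2 to 8), and the passenger strand is usually removed. Uridine fed as s4U enters new transcripts, and alkylated s4U is read as C in sequencing, so a new molecule can show a T>C mismatch. The T>C percentage of an arm is therefore the part of its reads over U that shows C. It depends on how many old molecules the arm has and on how much s4U the cell had taken up, and it is not the share of new molecules.

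The strands that carry the result are shown with the passenger before the guide of the same hairpin, 5′ to 3′, with the seed in capitals. They were taken from the hairpin sequences in the deposited table up to the last nucleotide that at least 50% of the arm's reads cover, with hairpin positions on the dm6 build. The first pair is the most abundant hairpin (bantam, chr3L:642208-642288, plus strand). The next hairpins had a passenger among the highest in T>C, namely miR-79 (chr2L:16698554-16698650, plus strand, in an intron of grp), miR-275 (chr2L:7425795-7425892, plus strand), miR-279 (chr3R:29215585-29215684, plus strand), miR-980 (chrX:280172-280269, minus strand) and miR-11 (chr3R:21622497-21622571, minus strand, in an intron of E2f1). Then come hairpins whose passenger lay above the guide at 1 h in labelled output, a measure per U that is defined below. They are miR-34 (chr3R:10100936-10101034, plus strand) and miR-282 (chr3L:3251022-3251118, plus strand). The last is the hairpin whose guide lay above its passenger in T>C with intervals that did not overlap, miR-9c (chr2L:16697924-16698015, plus strand, in an intron of grp).
bantam-5p: cCGGUUUUcgauuugguuugacu
bantam-3p: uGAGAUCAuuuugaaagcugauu
miR-79-5p: gCUUUGGCgcuuuagcuguauga
miR-79-3p: uAAAGCUAgauuaccaaagcau
miR-275-5p: cGCGCUAAucagugaccggggcu
miR-275-3p: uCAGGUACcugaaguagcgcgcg
miR-279-5p: aGUGGGUGgggguccaguguuucac
miR-279-3p: uGACUAGAuccacacucauua
miR-980-5p: aGUUUUUCauuuggccuggcuagc
miR-980-3p: uAGCUGCCuugugaagggcuu
miR-11-5p: cAAGAACUuucucugugacccg
miR-11-3p: cAUCACAGucugaguucuugcu
miR-34-3p: cAGCCACUaucuucacugccgcc
miR-34-5p: uGGCAGUGugguuagcugguug
miR-282-3p: aCAUAGCCuauaagagguuagg
miR-282-5p: uAGCCUCUacuaggcuuugucu
miR-9c-3p: uAAAGCUUuuauaccaaagcu
miR-9c-5p: uCUUUGGUauucuagcuguaga

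Of the passengers 6 of 42 began with U, and of the guides 31 of 39 did. The number of U in nucleotides 1 to 18 was alike, with a median of 6 in passengers (1 to 9) and 6 in guides (2 to 10), and the T>C percentage is taken per U. Passengers were the 5p arm in 28 hairpins and the 3p arm in 14. Before labelling, passengers had a median of 213 RPM and guides 4245 RPM (RPM, reads of the arm for every 1000000 small RNA reads).

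The 4 libraries held 22188940 to 22683870 small RNA reads, of which 53.4 to 56.4% were miRNA reads. Hairpins known as abundant in S2 cells were all present at 0 h, from 7778 RPM for miR-34 to 163688 RPM for bantam. All 18 hairpins listed as marks of muscle, neurons, late tissues, ovary and embryo, gut or fat were also listed, from 0.0901 RPM (miR-309) to 114.7 RPM (miR-278), and they summed to 206 RPM. There is 1 library per time and no replicate, so each test and each 95% interval compares reads of single libraries, covers counting error only, and counts every U of a molecule apart.

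Label reached most described miRNAs within 0.25 h. Pooled over all described arms T>C made 0.0425%, 0.0949%, 0.155% and 0.215% of reads over U (0, 0.25, 0.5 and 1 h), against 0.0327% in the library without s4U and IAA. More T>C than at 0 h was found in 75 of 112 arms at 0.25 h (67%), 82 at 0.5 h (73.2%) and 90 at 1 h (80.4%; Fisher's exact test, one-sided, with Benjamini-Hochberg adjustment across the 112 arms and a threshold of 0.05). Of 42 passengers 37, 38 and 40 passed at 0.25, 0.5 and 1 h, and of 39 guides 36, 37 and 38. Of 31 arms without a partner 2, 7 and 12 passed. The 21 arms that passed at no time were scarce, with a median of 2464 reads over U at 1 h against 85059 in the arms that passed at 1 h. The part of this depth in the missing calls was not tested.

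The controls set the size of a difference that can be read. Between the unlabelled libraries the same test called 22 of 112 arms higher with IAA (19.6%) and 8 lower (7.14%). The absolute difference of these libraries was at most 0.0270 percentage points in 9 of 10 arms with at least 10000 reads over U (0.9 quantile, 74 arms). The excess over 0 h was larger than that in 26, 27 and 27 of 27 such passengers (0.25, 0.5 and 1 h) and in 25, 37 and 39 of 39 guides. All comparisons with 0 h share that 1 library. Each of the 75, 82 and 90 arms called against the 0 h library was also called against the library without IAA. Other mismatches at U changed less than T>C. T>A was 0.0542% at 1 h and 0.0534% at 0 h and passed in 0, 1 and 1 arms (0, 0.893 and 0.893%). T>G was 0.0329% at 1 h and 0.0291% at 0 h and passed in 0, 1 and 8 arms (0, 0.893 and 7.14%). The T>G median per arm rose with time, with 0.0220%, 0.0233%, 0.0254% and 0.0291% (0, 0.25, 0.5 and 1 h).

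The ranking by excess T>C (labelled library minus 0 h, in percentage points) was headed by passenger strands at every time. All 20 highest arms at 0.25 h were passengers, and so were all 20 at 0.5 h and all 20 at 1 h. The highest guide at 1 h, miR-12-5p, stood at rank 25. Over 42 passengers the median excess was 0.449, 1.01 and 1.07 points (0.25, 0.5 and 1 h), and over 39 guides it was 0.0351, 0.0869 and 0.164.

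**Figure D1:**
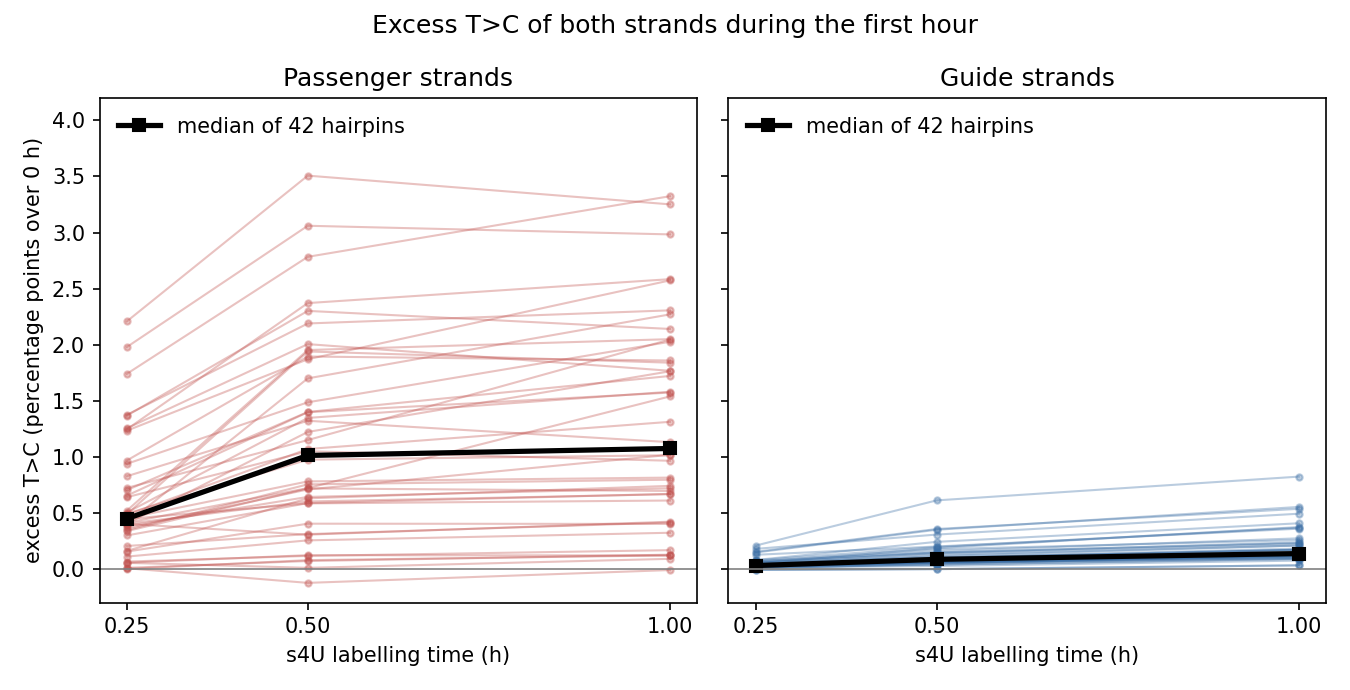
Excess T>C (percentage points over the 0 h library) against labelling time in hours for the passenger (left) and guide (right) of 42 hairpins, 1 line per strand, with the median in black. Passenger medians were 0.449, 1.01 and 1.07 points and guide medians over the same 42 hairpins 0.0301, 0.0855 and 0.137 points.

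MiR-79-5p was highest at 1 h. Its T>C percentages were 0.0539%, 1.79%, 2.84% and 3.38% (0, 0.25, 0.5 and 1 h), and 20.9% of its reads carried at least 1 T>C at 1 h against 0.0943% at 0 h. Its guide miR-79-3p, from a hairpin of the miR-9 family but without the seed of miR-9b-5p and miR-9c-5p, had 0.0274%, 0.0444%, 0.0854% and 0.120%. The strands did not overlap at any labelled time. MiR-14-5p, the passenger of a miRNA that limits cell death and fat storage, was highest at 0.25 h, with 0.0612%, 2.27%, 3.57% and 3.31% (0, 0.25, 0.5 and 1 h), and it rests on a single U, at nucleotide 18. MiR-275-5p followed, with 0.0157%, 1.99%, 3.08% and 3.00% at the same times, and its guide miR-275-3p with 0.0343%, 0.0904%, 0.138% and 0.216%. Both passengers had reached their highest value by 0.5 h, while their guides were highest at 1 h.

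MiR-980-5p kept gaining label through the hour. It had 0.0523%, 1.29%, 1.92% and 2.63% (0, 0.25, 0.5 and 1 h), and 20.4% of its reads carried T>C at 1 h against 0.196% at 0 h. Its guide miR-980-3p, which limits memory in the fly brain, had 0.0282%, 0.0718%, 0.0927% and 0.152%. MiR-279-5p, the passenger of a miRNA that restrains the formation of CO2-sensing neurons, had 0.0952%, 1.34%, 2.47% and 2.68%. MiR-11-5p, whose guide represses pro-apoptotic genes from within the E2f1 gene, had 0.0360%, 1.41%, 2.23% and 2.34%. In each of these hairpins the passenger lay above its guide from 0.25 h on. The other members of the highest 10 at 1 h were miR-995-5p (excess 2.27 points), miR-7-3p (2.14), miR-317-5p (2.05) and miR-1003-5p (2.05), all of them passengers.

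**Figure D2:**
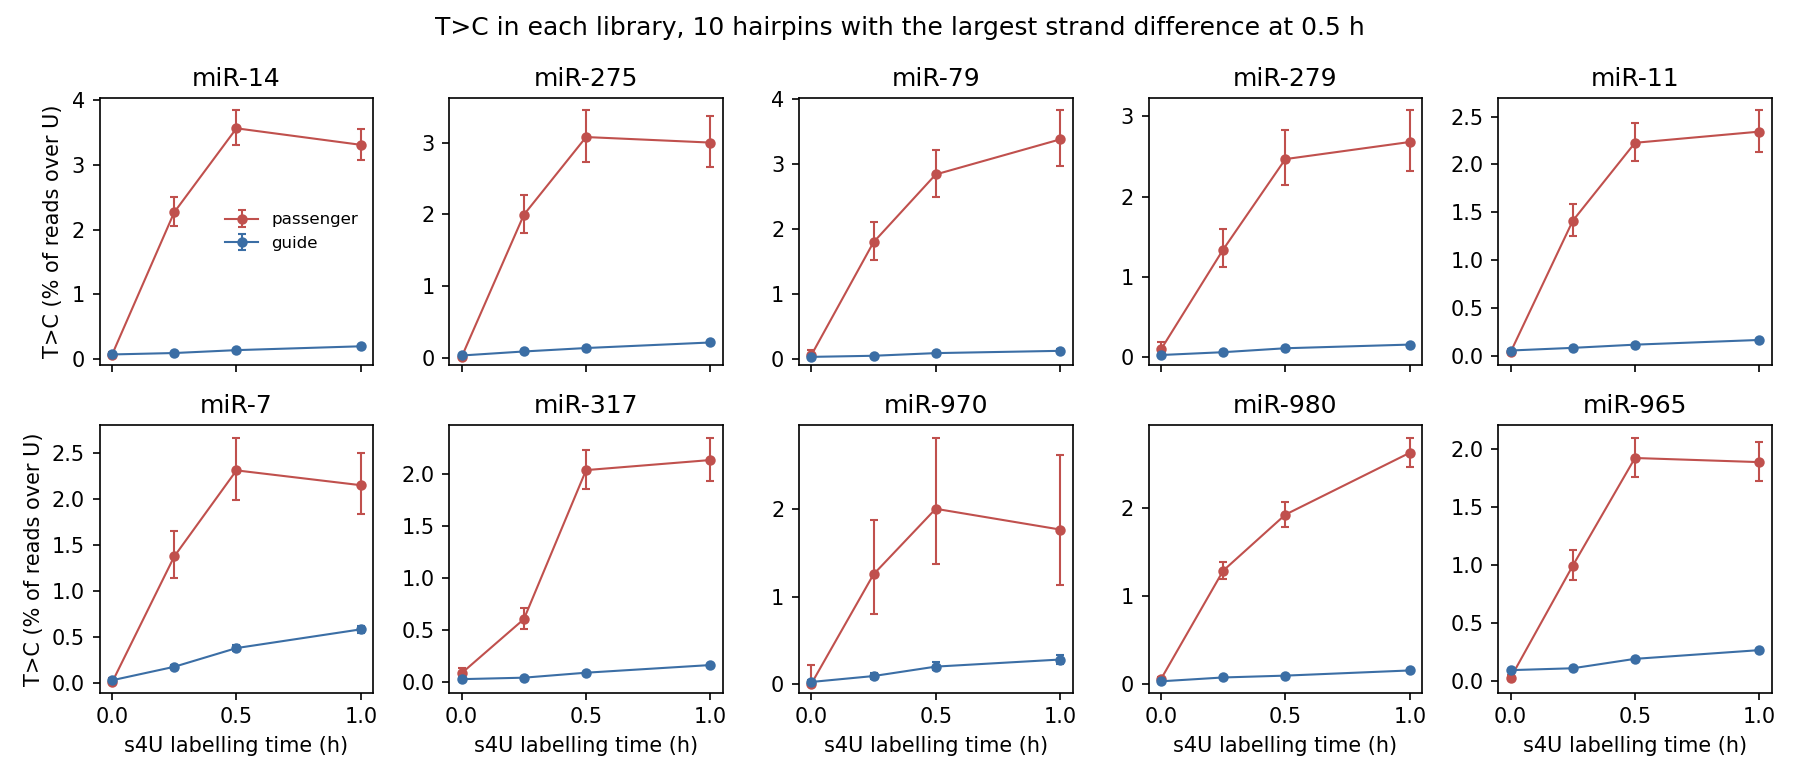
T>C in % of reads over U against labelling time in hours for the 10 hairpins with the largest passenger minus guide difference at 0.5 h, passenger in red and guide in blue, with exact 95% Clopper-Pearson intervals and a separate y axis for each hairpin. In each hairpin the passenger lies above the guide at the 3 labelled times; the miR-79 passenger is at 3.38% and its guide at 0.120% at 1 h.

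Among guides alone the values were smaller. MiR-12-5p, from an intron of Gmap, had 0.0224%, 0.231%, 0.634% and 0.846% (0, 0.25, 0.5 and 1 h). MiR-7-5p, which promotes photoreceptor differentiation, had 0.0335%, 0.180%, 0.383% and 0.586%, and the mirtron miR-1012-3p 0.0464%, 0.199%, 0.403% and 0.583%. These guides had 1115 RPM or less at 0 h. The most abundant guide, bantam-3p, which supports growth and represses the apoptosis gene hid, had 156685 RPM and only 0.0242%, 0.0547%, 0.0815% and 0.122%. The percentage is relative to all reads of the arm, old ones included, and alone it does not rank production.

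The lowest 10 arms at 1 h were miR-2c-3p, miR-281-1-3p, miR-4940-5p, miR-992-5p, miR-310-3p, miR-6-3-3p, miR-2279-3p, miR-2489-3p, miR-318-3p and miR-13a-3p, with excesses between -0.443 and 0.0371 points. MiR-992-5p showed no T>C read in any of the 4 libraries, which at 1 h allows up to 0.0979% (exact 95% bound). All but miR-2c-3p and miR-281-1-3p had under 100 RPM at 0 h. MiR-13a-3p had the lowest value, with 4.19% T>C at 1 h and 4.63% at 0 h, and at its nucleotide 13 alone 25% of reads showed C at 1 h and 28.9% at 0 h. Just inside the minimum of reads over U, which counts a read once for each U, stood miR-312-3p (1020, 0.392% T>C at 1 h), miR-31b-5p (1032, 0.0776%) and miR-2b-1-5p (1110, 1.54%). Just outside it were miR-1013-5p (952 reads over U), miR-986-3p (897 reads over U, 33.2% at 1 h and 33.1% at 0 h) and miR-954-3p (845 reads over U).

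Within hairpins the strands parted at the first time measured. The interval of the passenger's excess lay wholly above that of the guide in 32 of 42 hairpins at 0.25 h (76.2%), 35 at 0.5 h (83.3%) and 33 at 1 h (78.6%). The guide lay above in 0 hairpins at 0.25 h (0%), 1 at 0.5 h (2.38%) and 1 at 1 h (2.38%). The median difference, passenger minus guide, was 0.404, 0.806 and 0.856 points (0.25, 0.5 and 1 h). In 31 hairpins the strands were apart from 0.25 h up to 1 h, and in 3 from 0.5 h (miR-999, miR-2b-1 and miR-9c). The strands of the other 8 were not apart at 1 h, namely miR-12, miR-1012, miR-281-1, miR-281-2, miR-2a-2, miR-252, miR-190 and miR-2279.

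By value alone the excess at 1 h was higher in the passenger in 39 of 42 hairpins. In miR-190 the guide had 0.493 points and the passenger 0.421, and in miR-2279 0.0745 and -0.00994, with overlapping intervals. MiR-9c was the only hairpin in which the guide gained more with intervals apart. Its passenger miR-9c-3p had 0.0248%, 0.0806%, 0.148% and 0.145% (0, 0.25, 0.5 and 1 h), and its guide miR-9c-5p 0.0372%, 0.117%, 0.279% and 0.444%. At 1 h the excess was 0.120 points (0.0601 to 0.179) in the passenger and 0.407 points (0.373 to 0.442) in the guide. In miR-12 the passenger was above at 0.25 and 0.5 h, and at 1 h miR-12-3p had an excess of 1.13 points (0.865 to 1.40) and miR-12-5p 0.823 points (0.736 to 0.910), which overlap. In miR-2a-2 the passenger had 2475 RPM and only 0.0492%, 0.0502%, 0.128% and 0.170% (0, 0.25, 0.5 and 1 h), values in the range of guides. MiR-252-3p was another weakly labelled passenger, with 0.0750%, 0.0848%, 0.146% and 0.202% at 84.1 RPM (0 h).

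Passengers gained most of their label early and guides gained it through the hour. From 0.25 to 0.5 h the T>C percentage rose in 76 of 112 arms (67.9%) and fell in 0 (0%), and from 0.5 to 1 h it rose in 51 (45.5%) and fell in 1 (0.893%; the same test in both directions). Passengers rose in 34 of 42 arms at the first of these steps and in 12 at the second, and guides in 37 and 36 of 39. Such counts depend on depth, and passengers had a median of 213 RPM at 0 h against 4245 in guides. Among arms that carried more T>C than at 0 h at all 3 times, 37 passengers had reached a median of 47.9% of their 1 h excess at 0.25 h and 90.3% at 0.5 h. The 36 guides had reached 22.6% and 57.7%, when 25% and 50% of the hour had passed. The ranges were 17.8 to 95.4% in passengers and 9.34 to 36.5% in guides at 0.25 h, and 46.8 to 117% and 41.3 to 74.3% at 0.5 h, so the strands overlap as groups. An arm had to pass at 0.25 h to enter, which leaves out arms with little early label. The medians and the lower ends hold for the arms that passed only.

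**Figure D3:**
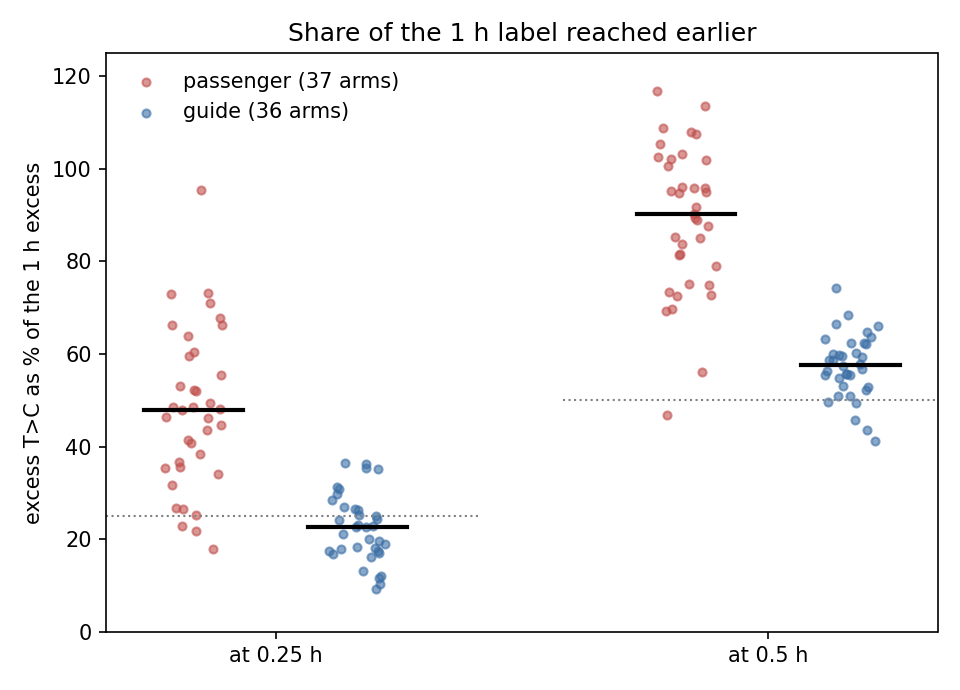
Excess T>C at 0.25 h and 0.5 h as a percentage of the excess at 1 h, 1 point for each of 37 passengers (red) and 36 guides (blue) called at all 3 times, black bars at the medians (47.9 and 22.6% at 0.25 h, 90.3 and 57.7% at 0.5 h). Dotted lines mark the part of the hour that had passed, 25% and 50%.

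Some passengers followed a slower course. MiR-34-3p had 0.0247%, 0.429%, 1.25% and 1.79% (0, 0.25, 0.5 and 1 h), which put 23.0% of its 1 h excess at 0.25 h, close to its guide miR-34-5p with 22.8%. MiR-317-5p, from the same cluster, reached 25.3% at 0.25 h and 95.3% at 0.5 h. MiR-995-5p, from an intron of Cdk2, reached 17.8% and 74.9%, and had the lowest share at 0.25 h among the 37 passengers that passed at all 3 times. The highest share at 0.25 h was 95.4%, in miR-190-3p, whose excess did not rise steadily, with 0.402, 0.306 and 0.421 points (0.25, 0.5 and 1 h). MiR-308-5p, from an intron of the ribosomal protein gene RpS23, had reached 72.9% at 0.25 h and its guide miR-308-3p 35.1%.

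Labelled output puts both strands on 1 scale in which old molecules of the arm itself do not enter. It is the excess rate times the mean RPM at the U positions, in T>C RPM per U, and it moves with the total of the library. Summed over the 112 arms it was 273, 627 and 934 (0.25, 0.5 and 1 h). Of the output of passengers and guides, passengers made 40.6%, 32.9% and 24.4% (0.25, 0.5 and 1 h), while they made 5.16% of all reads of these arms at 1 h and 5.53% at 0 h. The passenger is by definition the arm with fewer reads at 0 h, so a share of all reads below that of guides follows from the naming.

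The order by output was led by abundant guides, and at 0.25 h passengers of the same hairpins stood among the first 6. At 0.25 h bantam-3p had 41.1 (38.8 to 43.5), miR-184-3p 28.1 (25.4 to 30.9), bantam-5p 26.6 (25.7 to 27.5), miR-14-5p 16.7 (14.8 to 18.7) and miR-14-3p 14.1 (12.2 to 16.0). The intervals of bantam-5p and miR-184-3p overlap, and so do those of miR-14-5p and miR-14-3p. Then came miR-184-5p with 10.5, miR-8-3p with 8.50, miR-305-5p with 6.93, miR-282-5p with 6.75 and miR-282-3p with 6.74. Passengers held 4 of these 10 places at 0.25 h, 5 at 0.5 h and 3 at 1 h. At 1 h bantam-3p had 152 (149 to 156), miR-184-3p 119 (115 to 123) and miR-14-3p 78.1 (75.8 to 80.5), and bantam-5p had 37.0 (36.0 to 38.0).

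The lead of guides in output grew during the hour. Between 40 hairpins in which both strands had an excess above 0, the median passenger to guide ratio of output was 0.599 at 0.25 h, then 0.439 (39 hairpins) at 0.5 h and 0.265 (41) at 1 h, and it was 0.0572 in all reads at 0 h. An all-reads ratio below 1 at 0 h follows from the naming of the strands. Divided by the ratio of all reads in the same labelled library, the output ratio gives back the ratio of the excess percentages. It is therefore no separate measurement, although the order of the strands can differ between these scales. The guide lay above the passenger in 16 of 42 hairpins at 0.25 h (38.1%), 31 at 0.5 h (73.8%) and 35 at 1 h (83.3%), and the passenger above the guide in 1 (2.38%), 1 (2.38%) and 2 (4.76%). With a single U position per arm, so that each read counts once, 33 hairpins remain and the guide lay above in 4, 18 and 23. In 19 hairpins the strands overlapped in output at 0.25 h and the guide lay above at 1 h. These counts also depend on the number of T>C reads, which was 65548, 109844 and 149212 over the described arms (0.25, 0.5 and 1 h).

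**Figure D4:**
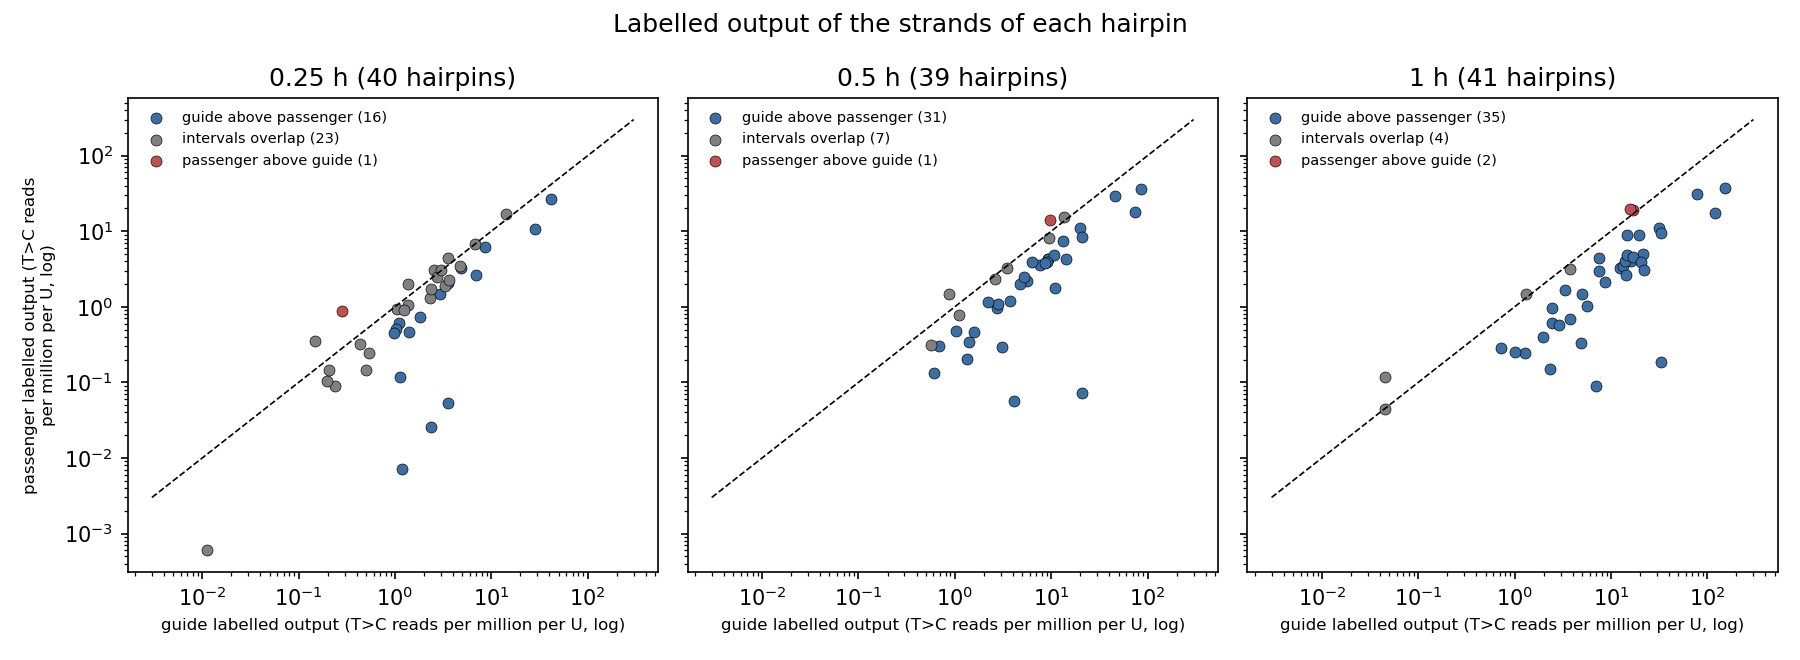
Labelled output of the passenger (y) against that of the guide (x), in T>C RPM per U on log axes, 1 point per hairpin with both values above 0, at 0.25, 0.5 and 1 h; the dashed line marks equal output. Blue points (guide above, intervals apart) number 16, 31 and 35, and red points (passenger above) 1, 1 and 2.

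Of 39 hairpins with a ratio at all 3 times, 35 had a lower ratio at 1 h than at 0.25 h, and in 31 it was lower at each step. The interval of the ratio at 1 h lay wholly below that at 0.25 h in 17 of 39 hairpins (43.6%) and above it in 0 (0%). In bantam the passenger had an output of 26.6, 36.1 and 37.0 (0.25, 0.5 and 1 h), the guide 41.1, 84.5 and 152, and the ratio was 0.647 (0.591 to 0.711), 0.427 and 0.243 (0.231 to 0.255). In miR-14 the passenger had 16.7, 28.9 and 30.7, the guide 14.1, 45.5 and 78.1, and the ratio was 1.19 (0.924 to 1.54), 0.636 and 0.394 (0.349 to 0.440). In miR-308 the passenger had 2.51, 2.49 and 2.67 and the guide 2.74, 5.24 and 14.4, so the ratio was 0.915 (0.670 to 1.28), 0.475 and 0.185 (0.153 to 0.222). The reads of the guide miR-308-3p also differed between libraries, with 2657, 2173, 2619 and 4022 RPM (0, 0.25, 0.5 and 1 h), and the part of this in its output was not tested. In these hairpins the passenger's output grew little after 0.5 h, and the guide's was higher at 1 h than at 0.5 h.

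**Figure D5:**
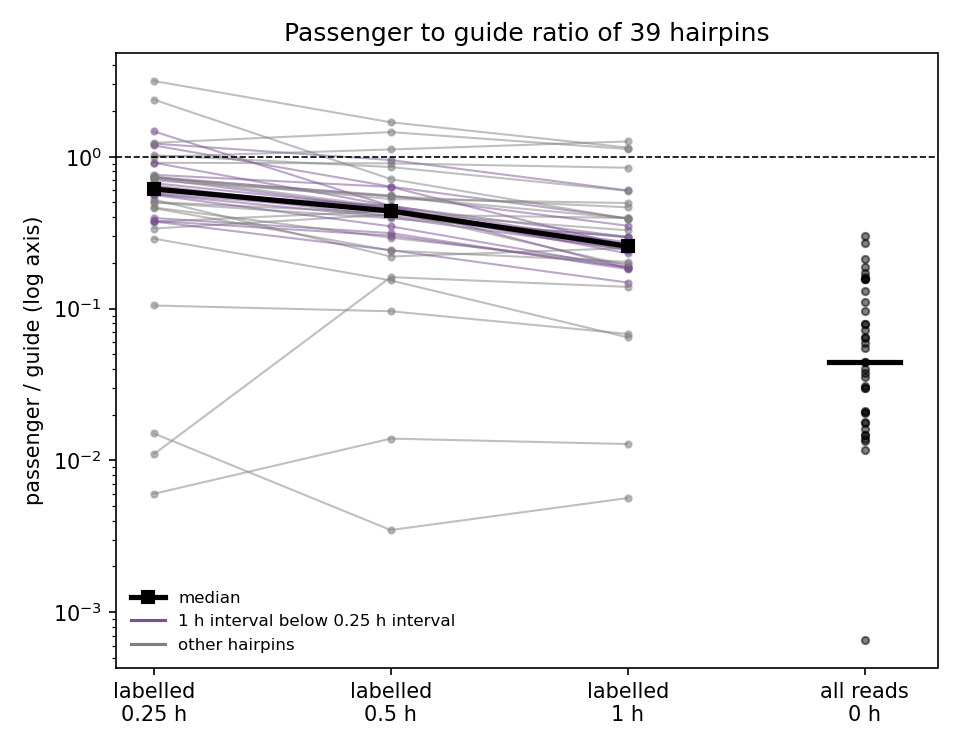
Passenger to guide ratio (log axis) in labelled output at 0.25, 0.5 and 1 h, and in all reads at 0 h, for the 39 hairpins with a ratio at all 3 times; black squares and bar are medians (0.614, 0.439, 0.258 and 0.0447). Purple lines mark 17 hairpins whose interval at 1 h lies below that at 0.25 h, and the dashed line marks equal strands.

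Output did not favour the guide in every hairpin. In miR-34, a miRNA linked to ageing in flies, the passenger had 4.41, 14.2 and 18.9 (0.25, 0.5 and 1 h) and the guide 3.57, 9.76 and 16.8, and the passenger lay above at 0.5 and 1 h. In miR-282 the passenger had 6.74, 15.2 and 19.9 and the guide 6.75, 13.6 and 15.8, and the passenger lay above at 1 h. The guide's reads were also fewer there, with 13037, 12389, 9755 and 7056 RPM for miR-282-5p (0, 0.25, 0.5 and 1 h). The part of this in the ratio was not tested. Output is per U, and miR-282-3p has 4 U in nucleotides 1 to 18 and miR-282-5p 7, so it is not a count of labelled reads. In miR-79 the passenger had 0.892, 1.46 and 1.50 (0.25, 0.5 and 1 h) and the guide 0.282, 0.863 and 1.30, and the passenger lay above at 0.25 h. In miR-306, of the same intron, the passenger had 0.947, 2.35 and 3.19 and the guide 1.04, 2.60 and 3.76, which overlap at each time. With a single U position per arm the passenger lay above the guide in output in no hairpin at 0.25 h and 1 h.

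The lowest ratios at 0.25 h belonged to miR-252 (0.00602), miR-2a-2 (0.0110), miR-2b-1 (0.0151), miR-2279 (0.0538) and miR-9c (0.105). The guides of miR-2a-2 and miR-2b-1 have the same sequence as the guide of another hairpin, and their reads are counted for each copy, so the ratio of each single hairpin may be understated. Such sharing touches 8 of the 42 hairpins, and over the 33 unshared ones with a ratio at all 3 times the medians were 0.647, 0.461 and 0.258.

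Hairpins of 1 transcript or 1 seed did not all gain label alike. In the grp intron the guides miR-9c-5p, miR-306-5p, miR-79-3p and miR-9b-5p had excesses of 0.407, 0.111, 0.0930 and 0.208 points at 1 h, and all 8 arms of this cluster carried more T>C than at 0 h at each time, where 37 of 42 passengers and 36 of 39 guides did so at 0.25 h. In the E2f1 intron the passengers differed, with 2.31 points for miR-11-5p and 0.323 for miR-998-5p, while the guides were near each other, with 0.110 for miR-11-3p and 0.117 for miR-998-3p. In the miR-275 and miR-305 cluster the output at 0.25, 0.5 and 1 h was 3.22, 4.27 and 4.00 in miR-275-5p and 2.62, 4.30 and 3.86 in miR-305-3p, the passengers. In the guides it was 4.80, 9.26 and 16.1 (miR-275-3p) and 6.93, 14.2 and 20.7 (miR-305-5p). The passengers of the 2 hairpins, which stood at 2.98 and 0.965 points of excess at 1 h, were closer in output, and the guides, at 0.181 and 0.231 points, were not. In the miR-277, miR-317 and miR-34 cluster the passengers had outputs of 4.78, 3.44 and 18.9 at 1 h and the guides 14.6, 13.3 and 16.8.

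Arms with the K-box seed, which pairs with a motif in Notch target genes, share AUCACAG at nucleotides 2 to 8, as in miR-11-3p above. Of 8 described arms 5, 5 and 6 carried more T>C at 0.25, 0.5 and 1 h, near the 38, 44 and 50 of 70 described arms that are no passenger. They had a median excess of 0.0132, 0.0592 and 0.0995 points, against 0.0286, 0.0702 and 0.123 over those 70. The highest at 1 h was miR-308-3p with 0.359 points, followed by miR-2b-1-3p with 0.136, miR-13b-2-3p with 0.112, miR-11-3p with 0.110 and miR-2a-1-3p with 0.0887. MiR-2a, miR-2b and miR-2c differ only near the 3′ end, so short reads of these arms cannot be told apart. Guides with the seed CAGGUAC, miR-275-3p and miR-306-5p, had 0.181 and 0.111 points at 1 h. With the seed GACUAGA, miR-996-3p had 0.228 and miR-279-3p 0.130.

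Mirtrons are excised by the spliceosome instead of Drosha. Of 9 described mirtron arms 5, 6 and 7 carried more T>C at 0.25, 0.5 and 1 h, near the share over all 112 arms (67, 73.2 and 80.4%). The 7 that are no passenger had a median excess of 0.0366, 0.0490 and 0.102 points. The strands of miR-1003 were apart from 0.25 h on, with an excess of 2.05 points in miR-1003-5p at 1 h, from 1662 reads over U, and 0.122 points in miR-1003-3p. The strands of miR-1012, the other mirtron with both strands described, were not apart at any time, with 0.338, 0.718 and 0.696 points in the passenger (0.25, 0.5 and 1 h) and 0.152, 0.356 and 0.536 in the guide. Hairpins in introns of protein-coding genes, as annotated, gave 56 described arms, of which 45, 49 and 51 carried more T>C at the 3 times, against 75, 82 and 90 of all 112. The 56 include 25 passengers. Their 31 arms that are no passenger had a median excess of 0.0289, 0.0659 and 0.122 points, close to the values over all 70.

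Counted per read, the result had the same shape. The deposited position table gives reads with at least 1 T>C, and the median excess share over 42 hairpins was 2.08%, 4.62% and 5.74% (0.25, 0.5 and 1 h) in passengers and 0.162%, 0.370% and 0.697% in guides. The median ratio of excess T>C reads, passenger to guide, was 0.590, 0.427 and 0.271. In bantam the share was 0.114%, 3.21%, 5.23% and 5.80% (0, 0.25, 0.5 and 1 h) in the passenger, and 0.0809%, 0.248%, 0.397% and 0.615% in the guide. The label was spread along the arms, since 176 of 178 U positions of passengers with at least 1000 reads had more T>C at 1 h than at 0 h, and 232 of 234 in guides.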

How the data were processed

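The authors deposited, for every position along an arm, the count of reads with A, C, G or T, library totals of small RNA and miRNA reads (counts), and a position table with a signal in RPM, whose values all correspond to whole reads (tolerance 0.001). Cutadapt 1.7.1, Bowtie 1.2.2, Picard and the dm6 build were used, per the submitters' processing notes. In the mismatch table the lowest mean level is 5.00 RPM. Hairpin positions (1-based) came from the BDGP6 annotation by FlyBase identifier for 84 of 86 hairpins.

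T>C reads and all reads were summed over U at nucleotides 1 to 18. Arms identical over 22 nucleotides were kept once. Arms were tested with Fisher's exact test and Benjamini-Hochberg adjustment over 112 arms within a time. Strands count as apart where the intervals of the excess (from exact Clopper-Pearson 95% bounds of both libraries) do not overlap, and as parted at the first time from which this holds up to 1 h. The interval rule for a change of the output ratio was added after values were seen. Scipy 1.17.1, pandas 2.3.3 and numpy 2.4.6 did the computing under Python 3.11.15, and matplotlib 3.10.9 drew the plots. The procedure was run on simulated counts with the same background in both libraries and independent reads over U. Such counts do not cover differences between libraries.

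Named arms are the 10 highest and lowest at 1 h, the 10 highest at 0.25 h, the 10 most abundant, the 10 highest in output at 0.25 and 1 h, the 5 hairpins at each end of the strand difference at 0.5 h and of the output ratio at 0.25 h, any hairpin whose guide lies above, and the members of the seed, mirtron, cluster and intron lists. MiR-31b-5p, miR-1013-5p, miR-986-3p and miR-954-3p were named for their read numbers, and miR-312-3p likewise. Members and lists were chosen with earlier results of these data known. The length of 22 nucleotides for copies was set after the files were seen. Alternatives covered the read minimum, the U positions, the background library, copies, the test, the choice of guide and shared sequences; calls against both unlabelled libraries, leaving out arms with over 1% C at a U position, and the share of reads with T>C were added after the data were seen.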

Additional observations from a re-analysis of the deposited data

How the results depend on the processing

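Across the alternatives 75 of 112 arms at 0.25 h became 60 to 80, 82 at 0.5 h became 67 to 87 and 90 at 1 h became 70 to 95. The number of arms tested changed as well. The lowest counts were 60 of 83 arms (single U position), and 67 and 70 of 72 arms (at least 10000 reads over U). The highest were 80, 87 and 95 of 113 arms, with the library without s4U and IAA as background. The passenger lay above the guide in excess in 23 to 36, 24 to 36 and 23 to 34 hairpins at the 3 times. The lowest of these counts were out of the 25 hairpins with at least 10000 reads over U, against 42 in the main setting. The median difference was 0.352 to 0.448, 0.646 to 1.04 and 0.635 to 1.203 points, 1.203 being without hairpins that share a sequence. The median output ratio stayed at 0.570 to 0.775, 0.404 to 0.524 and 0.243 to 0.337. Counts of strands apart in output moved most. With at least 10000 reads over U, which leaves 25 hairpins, the guide lay above in 10, 19 and 22 and the passenger in 0 at 0.25 h. With a single U position (33 hairpins) the guide lay above in 4, 18 and 23 and the passenger in 0 at 0.25 h and 0 at 1 h. The passenger lay above in 3 hairpins at 0.5 h with U positions 2 to 18, and in 3 at 0.25 h and 2 at 0.5 h without the U position highest at 1 h. With the library without s4U and IAA as background the guide lay above in excess in 1 hairpin at 0.25 h, and the excess of miR-13a-3p at 1 h turned to 2.22 points. Of 92 named arms 84 kept direction and call at 1 h under all alternatives run. No paired analysis was possible because each time has 1 library. Depth limits the scarce arms, and single libraries leave differences between cultures unmeasured.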

Other observations

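Nearly all reads showed C at nucleotide 3 of miR-4961-5p and of miR-986-3p, in the 4 libraries and in the library without s4U and IAA. At nucleotide 3 of miR-4961-5p it was 98.6% of reads at 1 h and 97.9% at 0 h, and 98.4% in the library without s4U and IAA. At nucleotide 3 of miR-986-3p it was 99.5% at 1 h and 99.2% at 0 h.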
